A study of Mus musculus with 24 samples.

Results

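Expression of 33 mouse genes of cholesterol and fatty acid synthesis was followed through the first 24 h of CD4+ T cell activation, together with sterol sensing and sterol export. The genes are listed by name for these functions, a list drawn up with earlier results of these data known, and all 33 were found among the 22009 named entries of the abundance table. Cells were CD4+ T cells from the spleen of WT C57BL/6 mice, taken by negative magnetic selection from a pool of mice. Resting cells were sequenced in 2 libraries, and activated cells in 18 cultures, a single library for every combination of 3 conditions (Th0, Th1 and Th2) and 6 times (4, 8, 12, 16, 20 and 24 h). Every culture received anti-CD3e and anti-CD28. The Th0 cultures received nothing else. To these, IL-12 with anti-IL-4 was added for Th1, and IL-4 with antibodies to IFN-γ and IL-12 for Th2. A further 4 libraries followed the loss of transcripts, in cells exposed to actinomycin, which blocks transcription, for 0, 1, 2 or 4 h after 16 h of stimulation, with no skewing condition given. All libraries share 1 strain and genotype, and no second culture per condition and time was sequenced. Whether the resting and actinomycin libraries came from the same pool as the cultures was not established here.

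Cholesterol is built from acetyl-CoA through mevalonate, isoprenoid units, squalene and a series of sterol intermediates. SREBP proteins, encoded by Srebf1 and Srebf2, are held in the endoplasmic reticulum by Scap and the Insig proteins when sterol is plentiful, and are carried to the Golgi, cut and released to the nucleus when it is scarce, where they switch on the synthesis genes. Oxidised sterols act the other way on LXR receptors, which drive the exporters Abca1 and Abcg1. T cells that leave quiescence need membrane lipid for growth and division.

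SREBP is known to bind sterol response elements, often beside a CCAAT box bound by NF-Y. The promoter windows of 4 synthesis genes that rose together and of the exporter Abca1, lower than at rest in every culture, are shown for comparison, from 250 bases before to 50 bases after the gene start (RefSeq, GRCm38.p6). Capitals mark each match on either strand to 3 letter patterns, namely TCACNCCAC (a form of the sterol response element), CCAAT, which reads ATTGG on the opposite strand, and CACGTG (an E-box).
Hmgcs1 (chr13:119690101-119690400, plus strand): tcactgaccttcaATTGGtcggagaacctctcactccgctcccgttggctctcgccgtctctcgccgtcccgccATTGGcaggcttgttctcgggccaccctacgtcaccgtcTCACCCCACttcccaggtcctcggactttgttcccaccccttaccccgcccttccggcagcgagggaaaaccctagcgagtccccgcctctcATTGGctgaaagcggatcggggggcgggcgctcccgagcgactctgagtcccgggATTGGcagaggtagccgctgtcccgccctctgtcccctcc
Idi1 (chr13:8885356-8885655, plus strand): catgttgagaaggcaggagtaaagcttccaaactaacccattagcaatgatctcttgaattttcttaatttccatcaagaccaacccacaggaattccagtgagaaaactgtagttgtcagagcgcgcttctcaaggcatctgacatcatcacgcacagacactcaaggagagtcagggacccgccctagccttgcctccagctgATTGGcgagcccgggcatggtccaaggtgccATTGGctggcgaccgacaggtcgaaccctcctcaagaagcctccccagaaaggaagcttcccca
Cyp51 (chr5:4104648-4104947, minus strand): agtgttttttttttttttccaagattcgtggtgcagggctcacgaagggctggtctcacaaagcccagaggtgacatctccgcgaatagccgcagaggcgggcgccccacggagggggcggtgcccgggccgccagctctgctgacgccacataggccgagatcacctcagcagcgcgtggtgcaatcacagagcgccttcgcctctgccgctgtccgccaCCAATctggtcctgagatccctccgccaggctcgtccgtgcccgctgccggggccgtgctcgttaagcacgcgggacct
Fasn (chr11:120824498-120824797, minus strand): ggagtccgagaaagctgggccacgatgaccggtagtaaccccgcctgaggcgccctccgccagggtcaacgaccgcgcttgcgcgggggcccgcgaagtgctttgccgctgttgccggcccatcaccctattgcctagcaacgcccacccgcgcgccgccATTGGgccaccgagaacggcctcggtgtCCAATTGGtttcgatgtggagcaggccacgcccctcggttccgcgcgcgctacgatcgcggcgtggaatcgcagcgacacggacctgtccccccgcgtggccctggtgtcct
Abca1 (chr4:53159846-53160145, minus strand): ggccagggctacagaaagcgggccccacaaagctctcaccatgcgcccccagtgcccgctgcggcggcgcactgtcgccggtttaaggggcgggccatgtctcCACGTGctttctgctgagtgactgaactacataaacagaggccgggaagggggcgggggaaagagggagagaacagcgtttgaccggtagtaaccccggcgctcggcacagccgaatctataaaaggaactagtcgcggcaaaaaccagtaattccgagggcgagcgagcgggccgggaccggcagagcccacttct

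The Hmgcs1 window held 1 TCACNCCAC and 4 CCAAT matches, the Idi1 window 2 CCAAT, the Cyp51 window 1 CCAAT and the Fasn window 3 CCAAT, of which a pair overlapped on opposite strands. The Abca1 window held 1 CACGTG and 0 of the other patterns. RefSeq windows were matched by symbol for 26 of the 33 genes, and those of Fdps, Fdft1, Sqle, Stard4, Abcg1, Scd2 and Fads1 were not used here. These 26 genes had 34 windows, of which 21 (61.8%) held CCAAT, against 37.4% of all 32851 windows. CACGTG stood in 7 of the 34 (20.6%) against 7.15% of all, and TCACNCCAC in 1 (2.94%) against 1.24%. The patterns do not overlap in their letters, apart from CCAAT matches on opposite strands. A match shows only that the letters are there.

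Values are RPKM, reads scaled to gene length and to all mapped reads, as deposited. Depth behind the values was recovered from the sizes of the smallest steps, and ran from 17512385 to 33017133 mapped reads over the time course and from 18052931 to 25735543 in the actinomycin libraries. Whole reads could be counted for 10 of the 33 genes, from 6 to 106 reads a library for Fads2, the lowest, to between 3849 and 9263 for Srebf2. Changes were fitted with limma on log2(RPKM + 0.5), a scale on which changes of low genes look smaller than they are. A change from rest was called at a Benjamini-Hochberg adjusted p under 0.05 and at least 2-fold. Cultures of all 3 conditions stand together at each time, and what separates them counts as error. The 2 resting libraries carry another tag in their labels than the cultures, so that preparation and activation cannot be told apart. Between these 2 libraries the median absolute log2 difference was 0.11 over the 32 genes tested, with the largest, 0.43, in Acaca.

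The labelled cell type was checked against its markers. The 7 CD4 T cell markers found of 8 summed to 1814 to 1825 RPKM at rest and to 1086 to 1445 RPKM in the cultures, with none at 0. The 10 macrophage and monocyte markers summed to 841 to 862 RPKM at rest, 76.3 to 115 RPKM at 4 h and 17.1 to 25.2 RPKM at 24 h. B cell markers, 6 in number, went from 67.2 to 77.5 RPKM at rest to 9.49 to 18.5 RPKM at 24 h, and the 4 red blood cell markers found of 6 from 19384 to 21449 RPKM to 73.4 to 107 RPKM. Fewer cells of a type and less RNA per cell cannot be told apart in such bulk samples.

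A set of synthesis genes rose on activation and the exporter Abcg1 fell. At 24 h, 8 of the 32 genes tested were higher than at rest (25%, against 12.7% of all 10897 genes) and 2 were lower (6.25%, against 17.4%). The 8 were Idi1, Hmgcs1 and Fdps of the mevalonate steps, Cyp51, Sqle and Msmo1 of the sterol steps, and Acaca and Fasn of fatty acid synthesis. The 2 were Abca1 and Abcg1. The median log2 change of the 32 genes at 24 h was 0.56, against -0.04 for all genes tested. Fads2 had a mean under 1 RPKM and was not tested, and Abca1 passed it only through its resting and 4 h levels (mean over the 18 cultures 0.952 RPKM). Abca1 had therefore to differ from rest, so its values are given as a description and its place among the lower calls supports nothing.

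The number of higher calls grew up to 12 h and then stayed at 8, though not of the same genes. At 4 h, 0 of the 32 genes were called higher (2.61% of all genes were) and 1, Abca1, lower (7.97%). With an adjusted p under 0.05 alone, 7 were higher at 4 h (21.9%, against 11.5% of all genes) and 5 lower (15.6%, against 20.2%). At 4 h, 4569 of all 10897 genes passed an unadjusted p under 0.05. At 8 h, 4 were higher (12.5%, against 6.42%) and 4 lower (12.5%, against 12.5%). At 12 h, 8 were higher (25%, against 10.7%) and 4 lower (12.5%, against 16.4%). At 16 h the counts were 8 higher (25%, against 11.2%) and 3 lower (9.38%, against 14.5%), and at 20 h 8 higher (25%, against 12.9%) and 2 lower (6.25%, against 16.1%). Hsd17b7 was among the 8 at 12 h, Fdps from 16 h on, and Lss in place of Msmo1 at 20 h. The lower calls at 8 and 12 h were Abca1, Abcg1, Scd2 and Fads1. The median log2 change of the 32 genes went from 0.12 at 4 h through 0.13, 0.38, 0.41 and 0.52 to 0.56 at 24 h, while that of all genes stayed between -0.07 and -0.01.

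**Figure D1:**
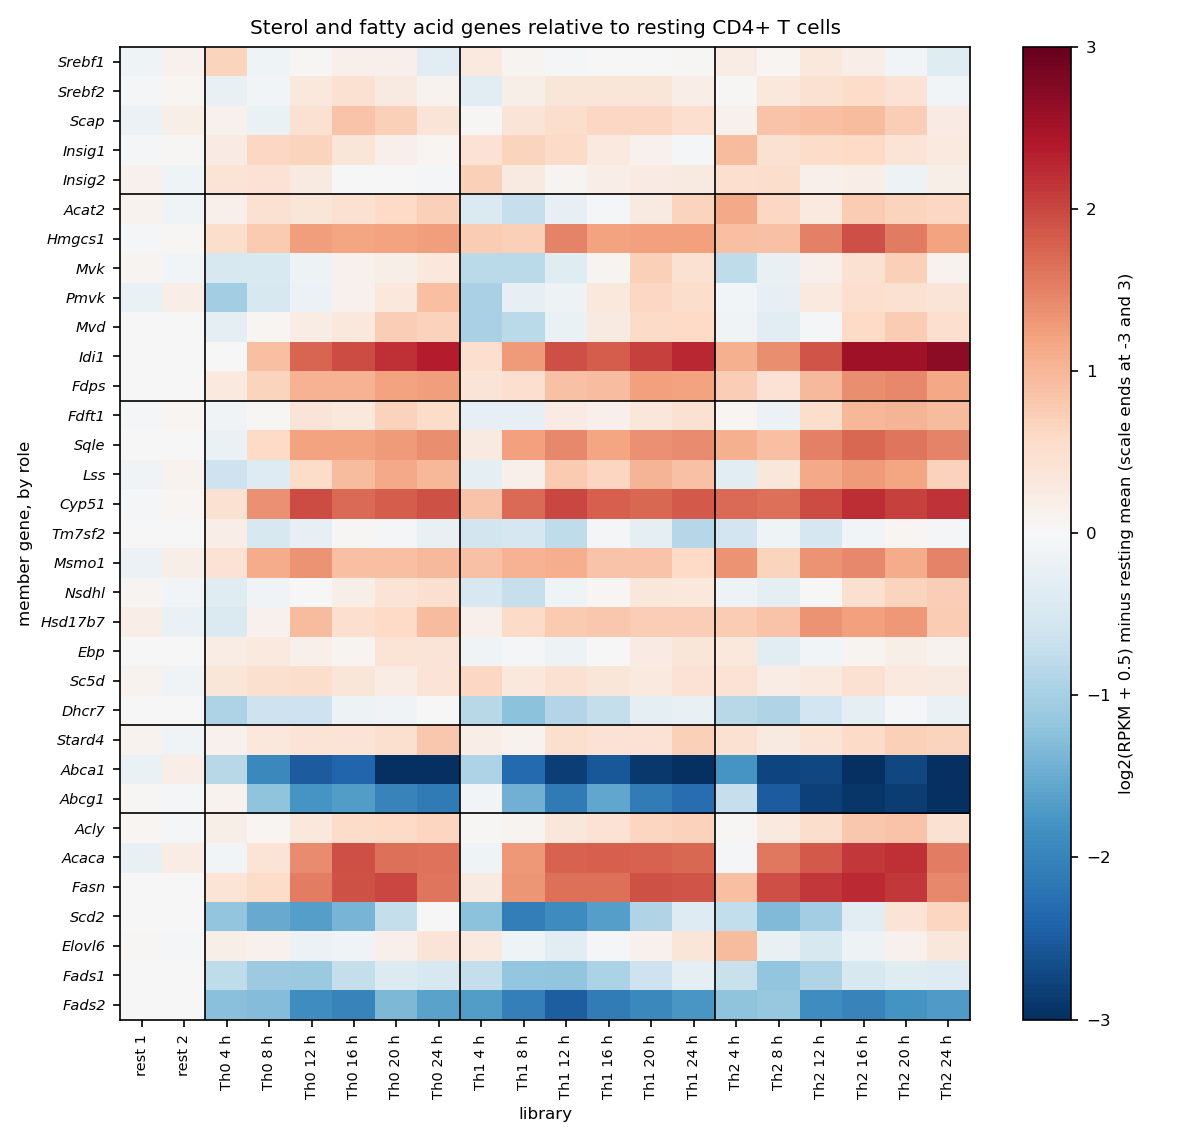
Each cell gives log2(RPKM + 0.5) of 1 of the 33 genes (rows, by role) in 1 library (columns) minus the mean of the 2 resting libraries, in red where higher and blue where lower, with the colour scale ending at -3 and 3. Idi1, Cyp51, Acaca and Fasn are above rest from 8 h on in all 3 conditions, Abca1 and Abcg1 turn blue, and the sensing genes at the top stay pale.

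The genes that sense sterol changed by less than 2-fold in the fit. None of the 5 was called at any time point. Of all genes, 2.61% to 12.9% were called higher and 7.97% to 17.4% lower, so 0 of 5 does not set them apart. Their largest log2 change was 0.80, for Scap at 16 h. At 24 h their log2 changes lay between -0.22 and 0.38, with a median of 0.10. At an adjusted p under 0.05 without the fold limit, 2 of the 5 were higher at 4, 8 and 20 h, 3 at 12 and 16 h, and 0 at 24 h. Of all genes, 11.5%, 22.5%, 28.9%, 30.3%, 32.1% and 31.6% were higher by this rule from 4 to 24 h.

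Srebf1, which encodes the SREBP forms that favour fatty acid genes, was at 39.7 and 46.9 RPKM at rest and, from 4 to 24 h, at 68.6, 39.7, 44.1, 48.3, 47.8 and 34.7 RPKM in Th0, 53.2, 45.7, 41.3, 43.6, 42.9 and 44.1 RPKM in Th1 and 50.5, 44.8, 54.2, 49.3, 40.8 and 33.3 RPKM in Th2. Its highest value was in the Th0 culture at 4 h, and 7 of the 18 cultures were above both resting libraries and 3 below. Srebf2, whose product favours the cholesterol genes, stood at 42.1 and 45.4 RPKM at rest and, from 4 to 24 h, at 37.2, 41.6, 55.0, 59.8, 53.1 and 47.2 RPKM in Th0, 34.6, 49.6, 56.2, 56.0, 56.7 and 50.5 RPKM in Th1 and 44.9, 54.1, 59.9, 64.1, 59.1 and 41.2 RPKM in Th2. It was highest at 16 h (log2 change 0.45 ± 0.13, SE, limma adjusted p = 0.0071) and back near rest at 24 h (log2 change 0.08 ± 0.13, SE, limma adjusted p = 0.62), so the fold stayed under the limit throughout.

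Scap, the escort of SREBP, was measured at 32.8 and 41.8 RPKM at rest and, from 4 to 24 h, at 40.3, 32.4, 50.8, 67.0, 61.2 and 48.3 RPKM in Th0, 38.0, 48.6, 54.0, 56.9, 57.0 and 53.0 RPKM in Th1 and 40.6, 67.6, 69.6, 71.7, 62.2 and 43.9 RPKM in Th2. Its change was largest at 16 h (log2 change 0.80 ± 0.22, SE, limma adjusted p = 0.0045), and 14 of 18 cultures were above both resting libraries. An antisense gene overlaps 13.2% of its exon bases, and no source used here states that counting used strand. Insig1, a retention factor and itself a target of SREBP, was at 19.7 and 20.7 RPKM at rest and, from 4 to 24 h, at 24.1, 31.4, 32.2, 26.2, 22.5 and 21.1 RPKM in Th0, 27.5, 32.1, 30.3, 24.8, 22.2 and 19.5 RPKM in Th1 and 39.7, 28.0, 29.7, 30.7, 27.1 and 24.6 RPKM in Th2. This gene was above both resting libraries in 17 of 18 cultures, with the highest value in the Th2 culture at 4 h, and its log2 change was 0.60 at 12 h and 0.10 at 24 h. Insig2, the second retention factor, stood at 12.9 and 10.7 RPKM at rest and, from 4 to 24 h, at 15.8, 16.0, 14.2, 11.8, 11.9 and 11.5 RPKM in Th0, 19.7, 14.3, 12.5, 13.5, 14.1 and 14.2 RPKM in Th1 and 16.8, 17.1, 13.0, 13.6, 10.4 and 13.4 RPKM in Th2. It was highest at 4 h (log2 change 0.55 ± 0.14, SE, limma adjusted p = 0.0081) and overlapped the resting range by 24 h.

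Of the 7 mevalonate genes, 3 were called higher at 24 h and 0 lower (12.7% and 17.4% of all genes were), with a median log2 change of 0.66. Idi1, which interconverts the isopentenyl units, had the largest rise of the 33 genes. Idi1 was measured at 23.1 and 23.0 RPKM at rest and, from 4 to 24 h, at 23.3, 43.6, 78.5, 90.3, 108 and 119.9 RPKM in Th0, 32.9, 56.5, 89.0, 82.8, 97.4 and 113 RPKM in Th1 and 48.5, 61.8, 87.1, 137, 138 and 151 RPKM in Th2. All 18 cultures were above both resting libraries, the Th0 culture at 4 h only just, and the mean rose from 23.1 ± 0.05 RPKM (SD, n = 2) to 128 ± 20.2 RPKM (SD, n = 3) at 24 h (log2 change 2.43 ± 0.26, SE, limma adjusted p = 7.5e-07). The Th2 libraries at 16, 20 and 24 h were the highest of all. Of the 50-base windows in Idi1 transcripts, 25.3% also occur in other genes' transcripts (GENCODE M21), so its level is uncertain to that extent.

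Hmgcs1 makes HMG-CoA at the head of the pathway. Hmgcs1 was at 15.4 and 16.0 RPKM at rest and, from 4 to 24 h, at 23.0, 27.7, 38.1, 36.5, 36.8 and 38.5 RPKM in Th0, 27.2, 26.1, 45.2, 36.9, 37.5 and 37.3 RPKM in Th1 and 30.1, 29.3, 45.8, 61.0, 47.2 and 37.1 RPKM in Th2. Again all 18 cultures were above rest, and the values reached a plateau by 12 h, apart from the Th2 culture at 16 h, which was the highest at 61.0 RPKM (exact Poisson 95% interval of counting error 59.3 to 62.7, 4989 reads). The log2 change was 1.42 ± 0.18 (SE, limma adjusted p = 7.2e-06) at 12 h and 1.23 ± 0.18 at 24 h. An antisense gene overlaps 12.1% of its exon bases.

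Fdps, which makes farnesyl diphosphate, went from 30.2 ± 0.44 RPKM (SD, n = 2) at rest to 70.4 ± 2.19 RPKM (SD, n = 3) at 24 h (log2 change 1.21 ± 0.15, SE, limma adjusted p = 3.1e-06), with all 18 cultures above both resting values. It shares 26.2% of its 50-base windows with other genes, chiefly Gm43738. That gene lies on the same strand and overlaps 26.7% of the exon bases of Fdps, so the level of Fdps is uncertain to that extent. The 3 genes between the head and Idi1 behaved otherwise. Mvk, mevalonate kinase, had a log2 change of -0.69 at 4 h and 0.29 at 24 h, Pmvk, the next kinase, -0.69 and 0.61, and Mvd, the decarboxylase, -0.46 and 0.59, all under 2-fold. Acat2, which joins acetyl-CoA units, stood at 11.7 and 9.99 RPKM at rest and, from 4 to 24 h, at 12.1, 15.0, 14.1, 15.1, 16.6 and 18 RPKM in Th0, 7.93, 6.49, 9.01, 10.5, 13.1 and 17.4 RPKM in Th1 and 24.5, 16.9, 13.4, 18.6, 17.5 and 16.9 RPKM in Th2. The Th1 cultures at 4, 8 and 12 h were the 3 lowest values and the Th2 culture at 4 h the highest. Acat2 shares 39.1% of its 50-base windows with its near copy Acat3, so its values are uncertain.

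The squalene and sterol steps gave 3 calls of 11 at 24 h, all higher (against 12.7% of all genes), with a median log2 change of 0.65. Cyp51, the lanosterol demethylase, had the highest log2 change of the 32 genes at 4 h. Cyp51 was measured at 12.5 and 13.6 RPKM at rest and, from 4 to 24 h, at 17.9, 34.5, 52.3, 43.5, 46.9 and 50.6 RPKM in Th0, 23.8, 43.6, 54.0, 46.1, 44.4 and 48.2 RPKM in Th1 and 43.5, 42.2, 51.9, 62.3, 55.5 and 59.9 RPKM in Th2. All 18 cultures were above both resting libraries, and the Th2 culture at 4 h was already at 43.5 RPKM where Th0 was at 17.9 RPKM. The log2 change was 0.998 ± 0.25 (SE, limma adjusted p = 0.0059) at 4 h, just under 2-fold, 1.58 ± 0.25 (SE, limma adjusted p = 8.8e-05) at 8 h and 1.97 ± 0.25 (SE, limma adjusted p = 5.1e-06) at 24 h.

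Sqle, squalene epoxidase, makes the first oxygenated step and is a point of control. Sqle was at 8.48 and 8.53 RPKM at rest and, from 4 to 24 h, at 7.38, 13.2, 20.2, 20.3, 21.4 and 23.3 RPKM in Th0, 10.3, 20.6, 24.1, 20.0, 22.7 and 23.5 RPKM in Th1 and 18.3, 16.3, 25.0, 29.4, 27.0 and 24.6 RPKM in Th2. The Th0 culture at 4 h was below rest and the other 17 cultures were above it. The rise was called from 12 h on (log2 change 1.38 ± 0.27, SE, limma adjusted p = 0.0003) and stood at 1.43 ± 0.27 (SE, limma adjusted p = 0.00019) at 24 h.

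Msmo1, a methyl oxidase of the sterol ring, was called higher at 12, 16 and 24 h (log2 change 1.02 ± 0.26, SE, limma adjusted p = 0.003 at the last), with all 18 cultures above rest. Lss, which closes the ring, was called at 20 h alone (log2 change 1.12 ± 0.22, SE, limma adjusted p = 0.00032), and Hsd17b7 at 12 h alone (log2 change 1.02 ± 0.31, SE, limma adjusted p = 0.0096). Fdft1, squalene synthase, had a log2 change of -0.10 at 4 h and 0.65 at 24 h, and an opposite-strand gene, Ctsb, overlaps 18.3% of its exon bases. Nsdhl, Ebp and Sc5d had log2 changes of 0.52, 0.28 and 0.37 at 24 h. Dhcr7, which carries out the last reduction to cholesterol, was lower, and 17 of its 18 cultures were below both resting libraries with the largest change at 8 h (log2 change -0.92 ± 0.18, SE, limma adjusted p = 0.00044). Tm7sf2, a sterol reductase, was below rest in 15 of 18 cultures with a log2 change of -0.36 at 24 h. Without the Th2 cultures the changes of Msmo1 at 24 h and Hsd17b7 at 12 h were 0.78 and 0.87, under 2-fold. Leaving out resting replicate 1 put Msmo1 at 0.85, and leaving out resting replicate 2 put Hsd17b7 at 0.82. With a pseudocount of 1 or upper-quartile scaling both were also under 2-fold, at 0.93 to 0.99.

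**Figure D2:**
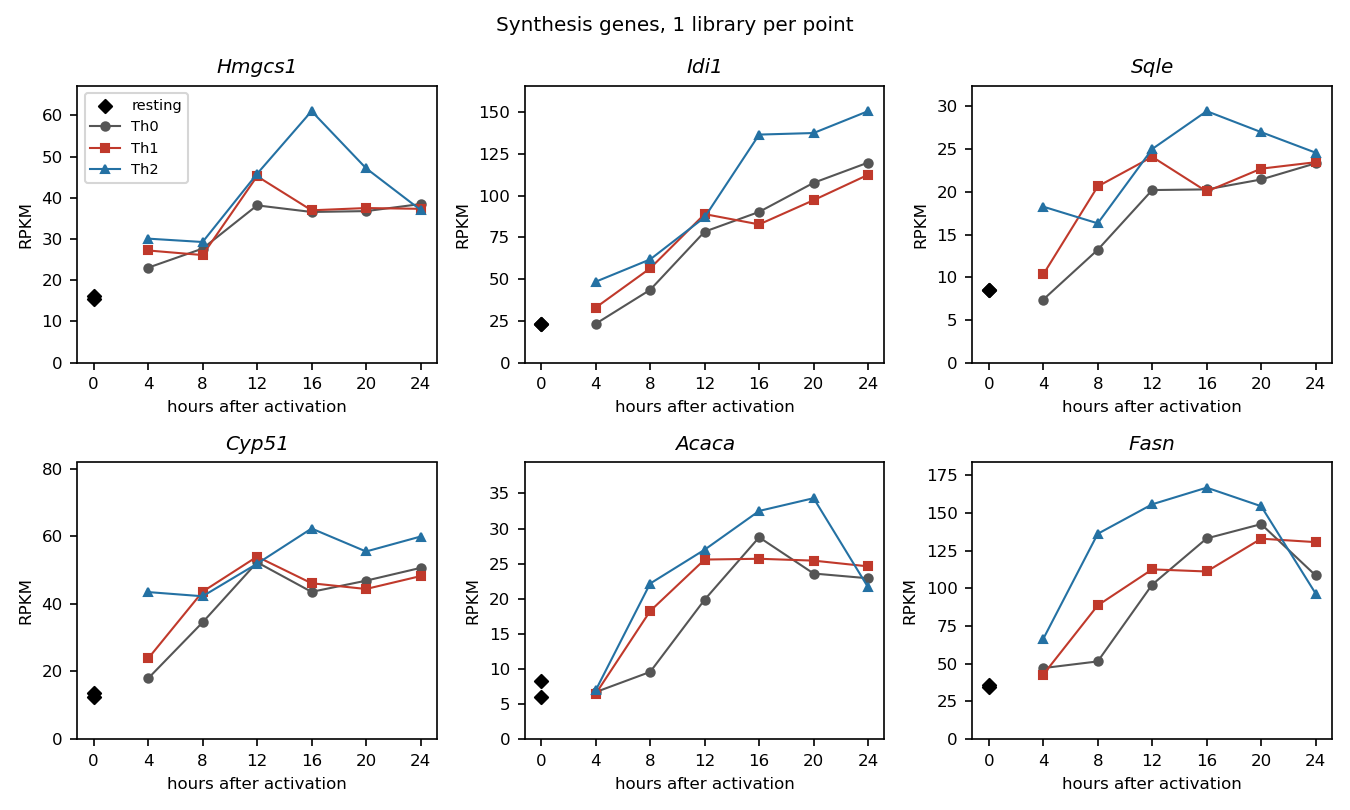
RPKM against hours after activation for Hmgcs1, Idi1, Sqle, Cyp51, Acaca and Fasn, each point being 1 library, with resting libraries as black diamonds at 0 h. Idi1 climbs to 113 to 151 RPKM at 24 h from 23.1 RPKM, and the Th2 line stands above the others at 16 h in all 6 panels.

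Transcripts for the first committed steps of fatty acid synthesis were higher, while those of Scd2 and Fads1, both desaturases, were lower at 8 and 12 h. Of the 6 genes tested, 2 were called higher at 24 h and 0 lower (12.7% and 17.4% of all genes were). Acaca makes malonyl-CoA. Acaca stood at 6.07 and 8.34 RPKM at rest and, from 4 to 24 h, at 6.70, 9.57, 19.9, 28.8, 23.6 and 22.9 RPKM in Th0, 6.45, 18.2, 25.6, 25.7, 25.4 and 24.6 RPKM in Th1 and 6.95, 22.2, 27.0, 32.5, 34.3 and 21.6 RPKM in Th2. No culture at 4 h differed from the resting range, and the other 15 cultures were above it. The change was 1.09 ± 0.25 (SE, limma adjusted p = 0.0021) at 8 h and 1.95 ± 0.25 (SE, limma adjusted p = 9.5e-06) at 16 h, where it was largest. The 8 h calls of Acaca and Fasn were lost without the Th2 cultures, at changes of 0.85 and 0.93, and with only the 2 time points compared (limma adjusted p = 0.065 and 0.051). That of Acaca was also lost without the Th1 cultures, at 0.988, and without resting replicate 1, at 0.88. Of Acaca's 50-base windows, 30.4% occur in other transcripts, chiefly those of Gm5182.

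Fasn, the fatty acid synthase itself, was measured at 34.8 and 35.6 RPKM at rest and, from 4 to 24 h, at 47.1, 51.5, 102, 133, 143 and 109 RPKM in Th0, 42.8, 88.7, 113, 111, 133 and 131 RPKM in Th1 and 66.5, 136, 156, 167, 154 and 96.5 RPKM in Th2. All 18 cultures were above rest without overlap, and the log2 change rose from 0.53 at 4 h to 2.01 at 20 h and was 1.64 ± 0.30 (SE, limma adjusted p = 0.00016) at 24 h. Acly, which supplies cytosolic acetyl-CoA, was already at 80.7 ± 4.56 RPKM (SD, n = 2) at rest and reached 123 ± 10.0 RPKM (SD, n = 3) at 24 h (log2 change 0.60 ± 0.13, SE, limma adjusted p = 0.00061), under 2-fold. Elovl6, an elongase, had a log2 change of 0.37 at 24 h.

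Scd2, a desaturase that places the first double bond, fell and came back. Scd2 was at 15.4 and 15.2 RPKM at rest and, from 4 to 24 h, at 6.45, 5.07, 4.53, 5.51, 9.13 and 15.3 RPKM in Th0, 6.22, 3.26, 3.79, 4.53, 7.98 and 11.6 RPKM in Th1 and 8.93, 5.84, 7.16, 12.2, 20.6 and 24.2 RPKM in Th2. In all, 15 cultures were below both resting libraries, the Th2 cultures at 20 and 24 h were above them, and the Th0 value at 24 h lay between. The fall was called at 8, 12 and 16 h (log2 change -1.63 ± 0.42, SE, limma adjusted p = 0.0041 at 8 h), while at 24 h the change was 0.09 ± 0.42 (SE, limma adjusted p = 0.86), with the Th1 culture below rest and the Th2 culture above it. Fads1, the delta-5 desaturase, was below rest in all 18 cultures, with a log2 change of -1.14 ± 0.14 (SE, limma adjusted p = 4.9e-06) at 8 h and -0.38 ± 0.14 (SE, limma adjusted p = 0.022) at 24 h. The 8 h call of Fads1 was lost with quantile normalization, at -0.86, and its 12 h call, a change of -1.07, with quantile normalization, median-of-ratios scaling or a pseudocount of 1, at -0.69, -0.95 and -0.99. Fads2, the delta-6 desaturase, stood at 2.95 and 2.99 RPKM at rest (88 and 106 reads) and between 0.121 and 1.09 RPKM in the cultures. Its lowest culture rests on 6 reads (exact Poisson 95% interval 0.044 to 0.262 RPKM, of counting error), and the highest interval among the cultures ended at 1.54 RPKM, below the 2.37 RPKM at which the lowest resting interval began.

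The exporters stood far below rest by 24 h. Abca1, which loads cholesterol onto apolipoprotein A1, stood at 5.67 and 7.74 RPKM at rest and, from 4 to 24 h, at 3.53, 1.37, 0.756, 0.879, 0.388 and 0.189 RPKM in Th0, 3.26, 0.925, 0.502, 0.719, 0.465 and 0.275 RPKM in Th1 and 1.58, 0.553, 0.566, 0.287, 0.578 and 0.316 RPKM in Th2. All 18 cultures were below both resting libraries, and 24 h was the lowest time point, at a log2 change of -3.23 on the fitted scale. From 6.71 ± 1.47 RPKM (SD, n = 2) the mean came to 0.26 ± 0.07 RPKM (SD, n = 3). At 4 h the change was -1.17, and it came under 2-fold at -0.87 without the Th2 culture of that time, at -0.97 without resting replicate 2 and at -0.96 with quantile normalization.

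Abcg1, which passes cholesterol to lipoprotein particles, was measured at 26.7 and 25.5 RPKM at rest and, from 4 to 24 h, at 27.9, 11.1, 7.29, 7.87, 6.11 and 5.57 RPKM in Th0, 24.8, 9.21, 5.62, 8.47, 5.73 and 4.96 RPKM in Th1 and 15.9, 4.18, 3.33, 3.04, 3.21 and 2.53 RPKM in Th2. At 4 h the Th0 culture was above both resting libraries and the Th1 culture just below, and from 8 h on all 15 cultures were below rest, with a log2 change of -2.52 ± 0.45 (SE, limma adjusted p = 0.00014) at 24 h. Macrophage markers were also lower in all cultures. At 4 h the summed markers were at 76.3 to 115 RPKM from 841 to 862 RPKM, while Abcg1 was at 15.9 to 27.9 RPKM from 25.5 and 26.7 RPKM. Of the 10 markers, 0 were at 0 in any library except the Th2 culture at 16 h, where 1 was, and their part in the falls of Abca1 and Abcg1 was not tested. Stard4, which carries sterol between membranes within the cell, had a log2 change of 0.73 ± 0.12 (SE, limma adjusted p = 7.9e-05) at 24 h, short of 2-fold, with 17 of 18 cultures above rest.

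**Figure D3:**
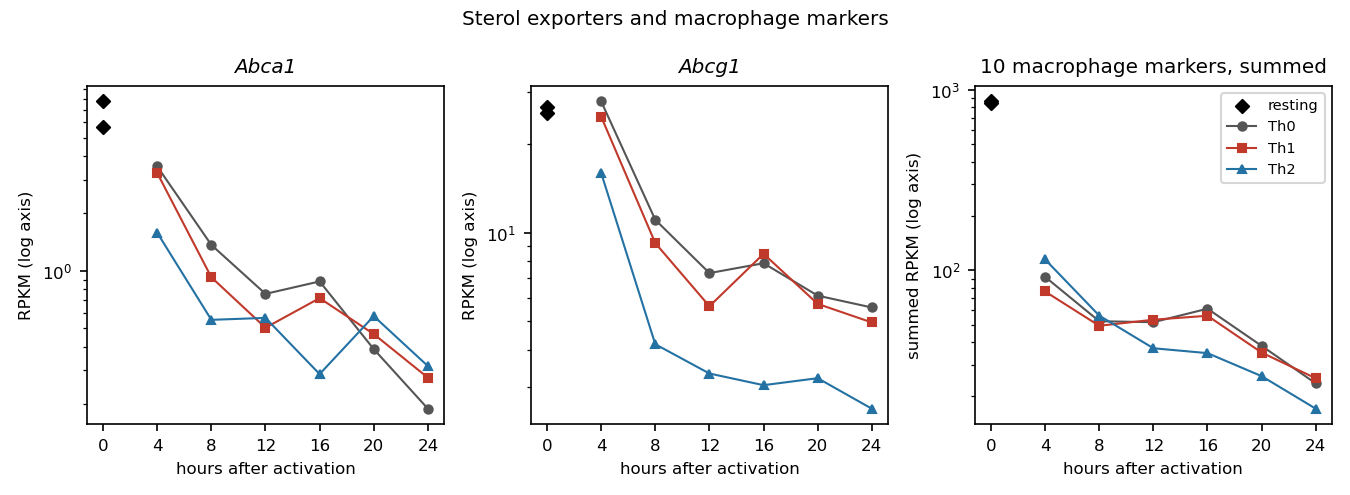
RPKM of Abca1 and Abcg1 and the summed RPKM of 10 macrophage markers, all on log axes, against hours after activation, 1 library per point. Abca1 and the markers drop by 4 h, whereas Abcg1 in Th0 and Th1 is still near its resting level at 4 h, and Th2 is the lowest line for Abcg1 at every time.

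Other genes of lipid metabolism, listed by function, were read at 24 h by the same limits, by which 12.7% of all genes were higher and 17.4% lower. Of 8 isoprenoid branch genes, 1 was higher and 0 lower, namely Pdss1 of ubiquinone synthesis (log2 change 1.41 ± 0.26, SE, limma adjusted p = 0.00017). Of 12 other lipogenic genes, 10 were tested, 3 were higher and 1 lower. These were the fatty acid binding protein Fabp5 (log2 change 2.52 ± 0.47, SE, limma adjusted p = 0.0002), the citrate carrier Slc25a1 (log2 change 1.40 ± 0.19, SE, limma adjusted p = 8.1e-06) and Acsl4 higher, and the acetyl-CoA synthetase Acss2 lower (log2 change -2.27 ± 0.40, SE, limma adjusted p = 0.00011). Among 10 genes of fatty acid oxidation, 0 were higher and 1, the mitochondrial entry enzyme Cpt1a, was lower (log2 change -1.55 ± 0.18, SE, limma adjusted p = 1.6e-06). Of 7 genes of sterol storage and release, 2 were lower, the lysosomal lipase Lipa (log2 change -2.07 ± 0.39, SE, limma adjusted p = 0.0002) and Mylip (log2 change -2.53 ± 0.27, SE, limma adjusted p = 9.8e-07), a known LXR target. Of the 4 genes for SREBP proteases and LXR receptors, 1 was lower, the receptor Nr1h3, which macrophages also express. Nr1h3 passed the limit of 1 RPKM only through its resting libraries (mean over the cultures 0.727 RPKM), so it had to differ and no test is given. It stood at 10.7 and 12.5 RPKM at rest and at 0.463, 0.200 and 0.238 RPKM in Th0, Th1 and Th2 at 24 h. The summed macrophage markers were also lower, at 17.1 to 25.2 RPKM at 24 h from 841 to 862 RPKM at rest. Their part in the falls of Acss2, Cpt1a, Lipa, Mylip and Nr1h3 was not tested.

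Conditions were compared over all 18 cultures, with times matched in the fit, and each condition is 1 series of cultures from a single pool, without biological replicates. At 2-fold and an adjusted p under 0.05, 0 of 31 genes differed between Th2 and Th1 (1.96% of all 10737 genes did), 1 between Th2 and Th0 (3.23%, against 2.01%) and 0 between Th1 and Th0 (against 0.494%). Across all genes, 2718 passed an unadjusted p under 0.05 between Th2 and Th1, and 1757 between Th1 and Th0. Abca1 and Fads2 had means under 1 RPKM in the cultures and were not tested.

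Below 2-fold, Th2 cultures stood somewhat higher for synthesis genes. With the adjusted p alone, a rule taken up after the values were seen, 5 of 31 were higher in Th2 than in Th1 (16.1%, against 3.49% of all genes) and 1 was lower (3.23%, against 8.71%). Between Th2 and Th0, 8 were higher (25.8%, against 12.9%) and 1 lower (3.23%, against 16.7%). Both comparisons use the same Th2 cultures. Higher than Th1 were Scd2, Acat2, Fdft1, Idi1 and Nsdhl, and higher than Th0 were Scd2, Hsd17b7, Idi1, Sqle, Fasn, Cyp51, Acaca and Hmgcs1, and the lower gene was Abcg1 in both. The median log2 difference of the 31 genes was 0.20 between Th2 and Th1 and 0.15 between Th2 and Th0, against 0.02 and 0.00 for all genes, and -0.03 between Th1 and Th0. The fold of these differences was small, with Idi1 at 0.38 ± 0.11 (SE, limma adjusted p = 0.027) over Th1 and 0.49 ± 0.11 (SE, limma adjusted p = 0.0034) over Th0. Several of these calls did not hold throughout. Of the 17 alternatives, the Idi1 difference from Th1 lost its call in 6, with limma adjusted p-values up to 0.145 (without 16 h), and that of Nsdhl in 2. Against Th0, Fasn lost its call in 8, Acaca in 7, Hmgcs1 in 6, Cyp51 in 4 and Hsd17b7 and Sqle in 1 each. Without 8 h the Th2 to Th0 difference was 0.27 for Fasn and 0.22 for Acaca, from 0.46 and 0.38, and with only 12 to 24 h that of Fasn was 0.22. Without 4 h that of Cyp51 was 0.25, from 0.42. The differences of Scd2, Acat2 and Fdft1 from Th1, those of Scd2 and Idi1 from Th0 and those of Abcg1 from both passed the adjusted p under all 17.

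Scd2 showed the largest difference between Th2 and Th1. The Scd2 values above place Th2 highest at 6 of 6 time points, with 0.96 ± 0.12 (SE, limma adjusted p = 3.1e-05) over Th1 and 0.68 ± 0.12 (SE, limma adjusted p = 0.00057) over Th0. At 16 h the ratio of Th2 to Th1 was 2.70. Without the Th2 culture at 4 h the Th2 to Th1 difference was 1.03 and passed 2-fold. Abcg1 was lowest in Th2 at 6 of 6 time points (log2 change -0.88 ± 0.09, SE, limma adjusted p = 8.2e-06 against Th1 and -1.03 ± 0.09 (SE, limma adjusted p = 1.3e-06) against Th0). Without the 8 h or the 16 h cultures the Th0 difference was -0.98 or -0.99, just under 2-fold. The summed macrophage markers were higher in Th2 than in Th0 and Th1 at 4 and 8 h and lower from 12 h on. The markers did not move together, and Hmox1 and Lyz2 weigh most in the sum. At 12 h Lyz2 was at 5.28 RPKM in Th2, 17.4 RPKM in Th0 and 13.9 RPKM in Th1. Csf1r, C1qa, C1qc, Vcam1 and Hmox1 were also lowest in Th2 at 12 h, whereas Cd68, C1qb and Mrc1 were highest in Th2 and Adgre1 lay between. The part of the macrophage markers in the Abcg1 difference was not tested. At 4 h, where the Th2 markers were highest at 115 RPKM, Abcg1 was lowest in Th2 at 15.9 RPKM. Acat2 was 0.76 ± 0.16 (SE, limma adjusted p = 0.0044) over Th1, with a ratio of 3.09 at 4 h, and the Th2 to Th0 difference was 0.23 ± 0.16 (SE, limma adjusted p = 0.31).

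**Figure D4:**
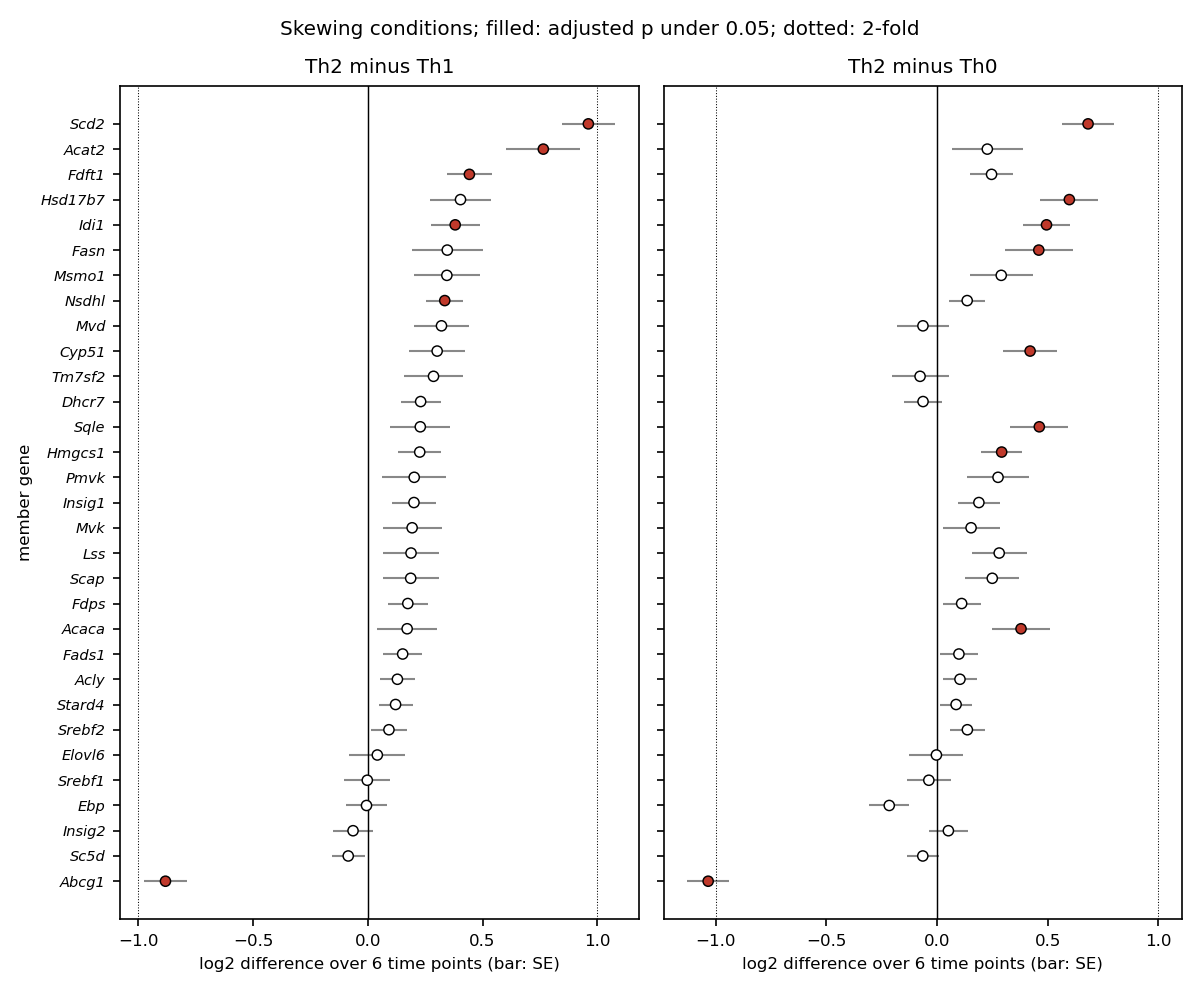
Points give the log2 difference between conditions over 6 time points for 31 genes, with bars for the SE from limma, filled where the adjusted p is under 0.05, and dotted lines at 2-fold. Most points lie to the right of 0, 26 of 31 for Th2 minus Th1 and 23 of 31 for Th2 minus Th0, while Abcg1 stands alone at the left. The share of all genes to the right of 0 is not reported here, and their median differences were 0.02 and 0.00. Both panels use the same Th2 cultures.

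The difference was uneven over time. Of the 31 genes, Th2 held the highest of the 3 values for 23 at 4 h (74.2%, against 37.3% of all 10737 genes), 14 at 8 h (45.2%, against 40.7%), 17 at 12 h (54.8%, against 42.7%), 27 at 16 h (87.1%, against 40.7%), 23 at 20 h (74.2%, against 37.7%) and 9 at 24 h (29.0%, against 31.7%). At 8 and 24 h the share was near that of all genes. At 24 h Th2 was the lowest for 18 of the 31, and the same share over all genes is not reported here. The median log2 difference of Th2 at 24 h was -0.09 from Th0 and -0.05 from Th1, against -0.07 and -0.10 for all genes. At 4 h the ratio of Th2 to Th0 was 2.48 for Sqle, 2.42 for Cyp51 and 2.08 for Idi1, and at 16 h it was 1.45, 1.43 and 1.51. Each such ratio rests on 1 library against 1 and has no replicate check. Red blood cell markers were also at their highest in the Th2 culture at 4 h, at 23772 RPKM.

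A test of the slope over time between conditions gave 1 of 31 genes between Th2 and Th1 (3.23%, against 1.09% of all genes). This gene was Acat2, whose log2 ratio of Th2 to Th1 fell by 0.0756 an hour (limma adjusted p = 0.023). Between Th2 and Th0, 0 of 31 differed, where 118 of all 10737 genes had a rising and 435 a falling ratio by the same rule. Between Th1 and Th0, 0 of 31 differed, where 2 of all genes had a rising and 1 a falling ratio. In these 2 pairs, 2466 and 991 of all genes passed an unadjusted p under 0.05. Without the Th2 culture at 4 h, 6 genes differed in slope between Th2 and Th1, namely Acat2, Fasn, Scap and Mvk with a falling and Msmo1 and Insig1 with a rising ratio, and 3 between Th2 and Th0. The share of all genes without this library is not reported here, so these counts are not read as particular to the 31 genes.

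After transcription was blocked, transcripts of several sterol genes fell. In the 4 actinomycin libraries, 7 of 32 genes had a falling slope (21.9%, against 12.0% of 10571 genes) and 1 a rising slope (3.12%, against 8.95%) at an adjusted p under 0.05. The fit rests on 4 libraries with 1 a time point. RPKM are relative to all mapped reads, and the median slope of all genes was 0.0022 on the log2 scale an hour, so a rising slope is a rise relative to other transcripts.

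Sqle fell fastest, from 29.4 RPKM at 0 h through 26.1 and 19.0 to 12.0 RPKM at 4 h (slope -0.33 ± 0.06, SE, limma adjusted p = 1.2e-05). Hmgcs1 was at 44.8, 36.5, 24.0 and 18.7 RPKM (slope -0.32 ± 0.06, SE, limma adjusted p = 8.8e-06), that is 0.419 of its start. The remaining 5 were Fdft1 (slope -0.25 ± 0.07, SE, limma adjusted p = 0.0045), Idi1, Cyp51, Msmo1 and Fdps, with slopes from -0.25 to -0.15. Of the 7, 6 were among the 8 genes called higher at 24 h, and the other 2 of those 8, Acaca and Fasn, had slopes of 0.12 ± 0.06 and 0.03 ± 0.06 (SE). How many of all genes called higher at 24 h had a falling slope is not reported here. The overlap is therefore not read as particular to these genes. Leaving out the 0 h or the 4 h library left 2 genes with a falling slope, and leaving out the 1 h library 4. Hmgcs1 alone kept its call under every alternative tried, and Sqle lost it only without the 4 h library.

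Scap was the gene with a rising slope, at 53.3, 67.9, 63.9 and 90.8 RPKM (slope 0.17 ± 0.06, SE, limma adjusted p = 0.015). The call of Scap was lost without the 0 h, the 1 h or the 4 h library. Srebf1 and Srebf2 had slopes of -0.0024 and 0.0026 (± 0.06), Insig1 -0.08 ± 0.06 and Insig2 0.07 ± 0.07 (SE), none past the limit. Abca1, at 0.130 to 0.260 RPKM, was not tested, and Abcg1 went from 2.20 to 1.42 RPKM. Before actinomycin, the 0 h library had Cyp51 at 74.4 RPKM where the 16 h cultures had 43.5, 46.1 and 62.3 RPKM, and Abcg1 at 2.20 RPKM where they had 7.87, 8.47 and 3.04 RPKM. B cell markers summed to 3.34 to 4.82 RPKM in the actinomycin libraries and to 17.2 to 20.0 RPKM in the 16 h cultures, so these libraries stand apart from the time course.

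**Figure D5:**
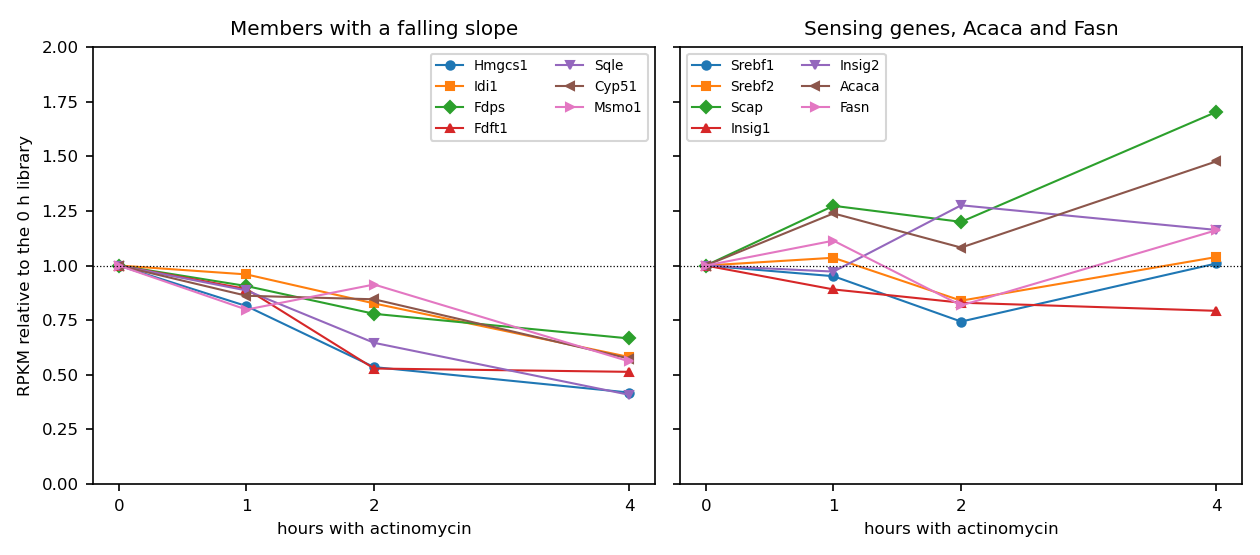
RPKM relative to the 0 h library against hours with actinomycin, 1 library per time, for the 7 genes with a falling slope (left) and for the 5 sensing genes, Acaca and Fasn (right). The left lines end between 0.408 and 0.666 at 4 h, and on the right Scap ends at 1.70 and Insig1 at 0.793.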

How the data were processed

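The authors deposited 1 table of RPKM values per gene symbol for 24 libraries. The submitters' processing notes name BWA and GRCm38, without versions. The counter, annotation and strand setting are not given in the sources used here. Of 22010 rows, 1 had no name and a sum of 0 and was left out. The labels describe purified CD4 cells, whereas the study's methods name naive cells, and the cell densities differ.

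The 33 genes, the other lists and the markers were chosen with earlier results of these data known. Whole reads were recovered where all values of a gene were within 0.001 of whole multiples of 1 step (43.6% of 16823 genes with at least 3 values, hence not a basis for a count test), and among 2344 of them that have only 1 transcript, 57.2% led to an equal depth to within 0.05%. Intervals are exact Poisson at 95% and cover counting error only.

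Values were tested as log2(RPKM + 0.5) by limma 3.58.1 (R 4.3.3), whose trend option was on, and p-values were adjusted by Benjamini-Hochberg over every gene averaging 1 RPKM or more in the fitted libraries. The fits were time point over 20 libraries, condition and time point over 18 cultures, condition by hours over the same 18, and hours over the 4 actinomycin libraries. Slopes and courses had no fold limit. No source says that the 2 resting libraries are separate animals, so their spread may be technical. The code was tested on simulated data. Values in every library are given for the sensing genes, for the 2 genes of each other role with the largest absolute change at 24 h among those tested and for the 3 with the largest difference between Th2 and Th1. Sequences are from RefSeq (GRCm38.p6) and shared 50-base windows from GENCODE M21. Alternatives changed the pseudocount (0.1 or 1), the filter (none, or 5 RPKM), the scaling (quantile, upper-quartile or median-of-ratios) and the trend, or left libraries out. Python 3.11.15 with pandas 2.3.3 and matplotlib 3.10.9 was used.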

Additional observations from a re-analysis of the deposited data

Results flagged for a closer look

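The course of Acat2 differed between conditions. Its log2 ratio of Th2 to Th1 changed by -0.0756 an hour (limma adjusted p = 0.023), and the ratio was 3.09 at 4 h. Over the alternatives the change lay between -0.0788 and -0.0596 an hour with an adjusted p from 0.016 to 0.24, and under 5 of them it was not called. Acat2 shares 39.1% of its 50-base windows with Acat3, whose part in this was not tested.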

How the results depend on the processing

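None of the 819 alternative values of single genes changed sign, and 725 kept their side of the threshold. Of 332 alternative counts, 272 stayed within 1.5 times the reported one, and the cause of the others was not tested. Quantile normalization moved the median change of all genes at 24 h from -0.04 to 0.13 and upper-quartile scaling to -0.10, and the share of calls that were higher from 42.3% to 54.0% (at 4 h from 24.7% to 43.5%).

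Genes called higher at 4 h numbered 0, but 1 with a pseudocount of 0.1, with median-of-ratios scaling or without the Th1 cultures, and 2 with quantile normalization or without the Th0 cultures. Without each resting replicate in turn they numbered 0 to 2. Genes called lower at 4 h numbered 1, but 2 with no filter or without the Th1 cultures, 3 with only the 2 time points compared, and 0 with a filter at 5 RPKM, quantile normalization or without the Th2 4 h library (added after the data were seen). Without each resting replicate they numbered 0 to 1. Genes higher at 8 h numbered 4, but 7 with quantile normalization and 2 with only the 2 time points compared. The filter at 5 RPKM, which removes Abca1, left 1 gene lower at 20 h and 1 at 24 h.

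Between Th2 and Th1, 1 gene differed with a pseudocount of 0.1, without 4 h, without 8 h, with only 12 to 24 h or without the Th2 4 h library, in each case Scd2. Between Th2 and Th0 the count of 1 became 0 with a pseudocount of 1, median-of-ratios scaling, quantile normalization, without 8 h or without 16 h. At any fold, 3 genes were higher in Th2 than Th1 with upper-quartile scaling or without 16 h. Against Th0, 4 were higher without 4 h, without 16 h, with only 12 to 24 h or only the 2 conditions, and 5 without 12 h.

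Courses of Th2 and Th1 differed for 0 genes with no filter, upper-quartile scaling or without 16, 20 or 24 h, for 2 without 4 h or 8 h, and for 6 without the Th2 4 h library. Courses of Th2 and Th0 differed for 1 with a pseudocount of 0.1, a filter at 5 RPKM or median-of-ratios scaling, for 2 with quantile normalization or without 8 h, for 5 without 4 h and for 3 without the Th2 4 h library.

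Falling actinomycin slopes numbered 3 with no filter, 4 with no intensity trend, 2 without the 0 h library, 4 without the 1 h library and 2 without the 4 h library. Rising slopes numbered 0 with no filter, no intensity trend or without the 0, 1 or 4 h library, and 3 without the 2 h library. With 1 library per culture and 4 actinomycin libraries, small differences could not be resolved. Conditions were matched by time point in the fit. Beyond that matching, no paired analysis was possible because the groups compared share fewer than 2 replicate numbers.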
